A study of Mus musculus with 6 samples.

Results

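The genes of the translation initiation factors were examined in GAS (gastrocnemius) muscle of mice with a muscle-specific knockdown of *Tet3* (mKD) and of their wild-type (WT) littermates. They were taken by gene symbol, as every gene whose name starts with Eif and a digit from 1 to 6, with *Eif4ebp1* left out by that rule and with a mean normalised count of at least 10 over the 6 libraries. Of 22027 genes in the table, 55 carry such a symbol and 51 were members. *Eif2s3y* and *Eif4e1b* had no read in any library and *Eif4ebp3* had a mean of 4.82, so they were left out, while the lowest member, *Eif5a2*, had a mean of 27.9. All 51 members passed the filter on low counts that left 12322 genes for testing. The members comprise 14 genes of the eIF2 group, 14 of the eIF3 group, 13 of the eIF4 group, 5 of the eIF1 and eIF1A group and 5 named for eIF5, eIF5B, eIF5A and eIF6.

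Initiation is the step at which a ribosome is placed on the start codon of an mRNA. The eIF2 trimer carries the initiator tRNA to the small ribosomal subunit, and eIF2B, a protein of several subunits, exchanges GDP for GTP on eIF2 after each round. Kinases that phosphorylate the alpha subunit of eIF2 block that exchange. The eIF3 complex holds the small subunit together with the other factors, and eIF4E, eIF4G and eIF4A form eIF4F, which binds the mRNA cap and unwinds the leader. In muscle, insulin and amino acids act on this step through the kinase mTOR, which phosphorylates the proteins that hold eIF4E back.

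Poly(A)-selected RNA was sequenced from female mice aged 14 weeks and fed on regular chow, with 1 library per mouse and 3 biological replicates per genotype. The mKD mice carried *Tet3* fl/fl and the HSA-Cre79 transgene, whose Cre recombinase is driven by the human α skeletal muscle actin promoter. Their WT littermates carried the same floxed *Tet3* without Cre. The promoter is active in muscle fibres, and the tissue also holds blood vessel, nerve and other cells, in which *Tet3* was not measured separately. The labels give 48 h as the time of every sample without saying what was timed.

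The mKD libraries held 28050939 to 32148270 reads and the WT libraries 16219227 to 26705724, with 13023 to 13510 genes detected in a library. *Tet3* had normalised counts of 425, 318 and 472 in mKD, against 594, 536 and 708 in WT, and the mKD values were all below the WT values (log2 fold change -0.60, SE 0.18, adjusted p = 0.18 from limma). An exact two-sided permutation test gave p = 0.10 for *Tet3*, and 3 mice against 3 cannot go lower. Once the dependence on transcript length described below for all genes was taken out of every library, the value for *Tet3* was -0.22. Markers of muscle fibres were present in every library (10 of 10 genes, summed normalised count 5143824 to 6165349 in mKD and 5094488 to 6305727 in WT). Schwann cell and nerve markers set mKD replicates 1 and 3 apart: their sum was 37868 and 11580 in these mice and 1801 in mKD replicate 2, against 2355 to 2457 in WT. Endothelial markers summed to 8151 to 9869 in mKD and 12841 to 14014 in WT, and 7 of 10 were lower in mKD. Fibroblast and matrix markers summed to 7412 to 10908 in mKD and 9169 to 12849 in WT, and 3 of 8 were lower. Adipocyte markers summed to 5939 to 9676 in mKD and 4258 to 4790 in WT, and 2 of 7 were higher. These sums hide a wide spread within WT. Averaged over the 7 genes as log2 deviations from the WT mean, the mKD libraries were at 3.53, 1.64 and 3.24. The WT libraries were at 1.94, 1.56 and -3.50, so WT replicate 3 was far below the others. In bulk tissue, fewer cells of a type and less RNA per cell cannot be told apart.

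In mKD muscle, 9 of the 51 initiation factor genes were higher than in WT by at least 1.2-fold with an unadjusted p under 0.05. They were *Eif2b1*, *Eif2b2* and *Eif2b3* of eIF2B, *Eif3e*, *Eif3i* and *Eif3k* of eIF3, and *Eif1b*, *Eif5a* and *Eif6*. This is 17.6% of the members, beside 8.31% of all genes tested. No eIF4 gene was among them. *Eif3j2* was lower by the same rule, 1 of 51 members beside 9.51% of all genes, and the other 41 members did not pass it. The changes were small, at 0.30 to 0.49 on the log2 scale for the 9 higher genes, and none of them reached 1.5-fold.

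No member had an adjusted p under 0.05 in limma (0.0162% of all genes did), while 11 had an unadjusted p under 0.05, beside 18.1% of all genes. The edgeR test on recovered reads also gave no member, and DESeq2 gave *Eif3k* (adjusted p = 0.031) and *Eif5a* (adjusted p = 0.042), beside 5.09% of the genes to which it gave an adjusted p. The mKD libraries lay wholly above the WT libraries for 14 members, beside 12.1% of all genes, and wholly below for *Eif1a* and *Eif4g2*, beside 12.7% of all genes. Of the 51 fold changes 34 were positive and 17 negative, and their median was 0.08, against 0.01 for all genes tested. The number of higher genes was 9 with each of TMM scaling (8.89% of all genes), upper-quartile scaling (8.15%), DESeq2 (8.29%) and edgeR (8.93%). It was 3, beside 5.04% of all genes, with the dependence on transcript length removed, and 4, beside 6.31%, with the replicate number as a block. It was 5 without mKD replicate 3, beside 6.83% of all genes, 6 without WT replicate 1, beside 5.77%, and 6 without WT replicate 3, beside 9.02%. It was 2 (*Eif1b* and *Eif2b2*), beside 3.73% of all genes, with mKD replicates 1 and 3 both left out, a fit that takes the lone mKD library to vary as the WT libraries do. The part of the nerve signal in the remaining calls was not tested.

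**Figure D1:**
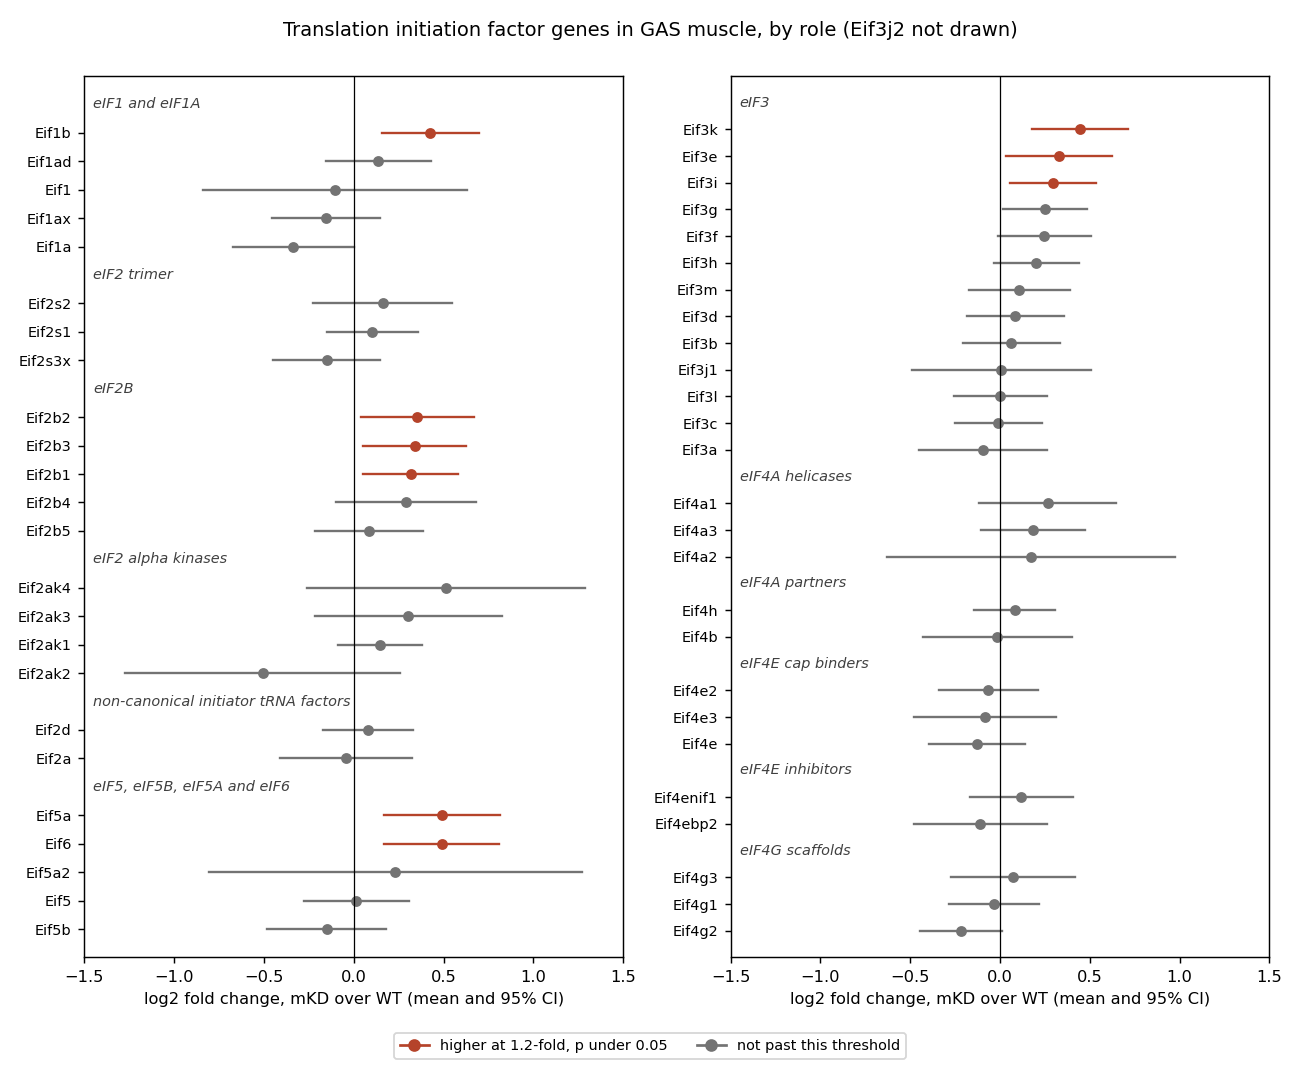
Log2 fold change of 50 initiation factor genes in GAS muscle, mKD over WT, with its 95% confidence interval from limma (3 mice each), in panels ordered by role. Orange marks the 9 genes higher at 1.2-fold with an unadjusted p under 0.05, beside 8.31% of all genes tested. They fall in eIF2B, eIF3, eIF1 and the eIF5A and eIF6 group, with none among the 13 eIF4 genes. *Eif3j2* is not drawn, because 2 of its libraries had no read.

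The 14 genes of the eIF2 group had a median log2 fold change of 0.15, with 11 values above 0 and 3 below. Without WT replicate 3 this median was 0.093. By the 1.2-fold rule 3 of the 14 genes were higher, beside 8.31% of all genes tested. All 3 genes encode subunits of eIF2B, and all 5 eIF2B genes had positive values, with a median of 0.32. With the trend over transcript length removed, the eIF2B median was 0.15, and of the 5 only *Eif2b5* fell below 0, at -0.0038. The subunits are alpha (*Eif2b1*), beta (*Eif2b2*), gamma (*Eif2b3*), delta (*Eif2b4*) and epsilon (*Eif2b5*). The exchange of GDP for GTP is carried out by epsilon, and alpha, beta and delta form the part that senses phosphorylated eIF2.

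*Eif2b1* (chr5:124570213-124579131 in GRCm38, minus strand) had normalised counts of 1185, 1165 and 1317 in mKD, against 925, 1076 and 944 in WT. The lowest mKD library was 88.2 counts above the highest WT library, and the means were 1222 ± 82.9 in mKD and 982 ± 82.5 in WT (log2 fold change 0.32, SE 0.11, adjusted p = 0.22). *Eif2b2* (chr12:85219481-85226628, plus strand) had 854, 948 and 760.0 in mKD, against 627, 624 and 751 in WT, with only 8.81 counts between mKD replicate 3 and WT replicate 3 (means 854 ± 93.8 in mKD and 667 ± 72.5 in WT; log2 fold change 0.35, SE 0.14, adjusted p = 0.24). *Eif2b3* (chr4:117019402-117087306, plus strand), at 501, 475 and 546 in mKD, against 393, 428 and 381 in WT, was higher in every mKD library than in every WT library (means 508 ± 35.8 in mKD and 401 ± 24.6 in WT; log2 fold change 0.34, SE 0.12, adjusted p = 0.22). These 3 calls were not stable to the loss of 1 mouse. That of *Eif2b1* was lost without mKD replicate 3, WT replicate 1 or WT replicate 3, with values of 0.26, 0.28 and 0.29. That of *Eif2b2* was lost without mKD replicate 1 or 2 or WT replicate 1 or 2 (0.28 to 0.35), and that of *Eif2b3* without mKD replicate 1 or 3 or WT replicate 1 or 3 (0.29 to 0.35).

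The other eIF2B genes did not pass the rule. *Eif2b4* had a log2 fold change of 0.29, 95% CI -0.10 to 0.68, with mKD replicate 1 below WT replicate 1. *Eif2b5*, the most abundant of the 5 per kb of transcript (857 normalised counts per kb in mKD and 809 in WT), had 2111, 1998 and 2457 in mKD, against 1961, 2339 and 1898 in WT and a log2 fold change of 0.08, 95% CI -0.22 to 0.38. Its genotypes overlapped, with WT replicate 2 above mKD replicates 1 and 2.

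The trimer that eIF2B acts on showed no call. *Eif2s1* encodes its alpha subunit, the one that the kinases phosphorylate, and had 921, 1071 and 933 in mKD, against 903, 928 and 883 in WT (log2 fold change 0.10, 95% CI -0.15 to 0.36). *Eif2s2* encodes the beta subunit and had 4393, 4507 and 3691 in mKD, against 4029.5, 4394 and 2942 in WT (log2 fold change 0.16, 95% CI -0.22 to 0.55), with WT replicate 3 below the other libraries. *Eif2s3x* encodes the gamma subunit, which binds the initiator tRNA, and had 1676, 1944 and 1627 in mKD, against 1934, 2176 and 1723 in WT (log2 fold change -0.15, 95% CI -0.45 to 0.15). The genotypes overlapped for each subunit. The count of *Eif2s3x* is uncertain, since 35.7% of the 75-base windows of its transcripts also occur in other genes, chiefly *Gm2223*.

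The kinases of eIF2 alpha gave the widest spread of the group. *Eif2ak1*, the haem-regulated kinase, was the most abundant, at 405 normalised counts per kb in mKD and 367 in WT. It had 1713, 1771 and 1775 in mKD, against 1647, 1650.2 and 1465 in WT, the mKD libraries all above the WT libraries by a small margin (log2 fold change 0.15, 95% CI -0.09 to 0.38). *Eif2ak2* encodes PKR, which is activated by double-stranded RNA, and had 55.3, 73.4 and 88.2 in mKD, against 158, 87.3 and 75.3 in WT (log2 fold change -0.51, 95% CI -1.27 to 0.26). *Eif2ak4* encodes GCN2, which responds to uncharged tRNA, and had 143, 127 and 134 in mKD, against 53.9, 115 and 133 in WT (log2 fold change 0.51, 95% CI -0.26 to 1.29). Both of these turned on WT replicate 1, the shallowest library, which was the highest of 6 for *Eif2ak2* and the lowest for *Eif2ak4*, and without it their values were -0.19 and 0.12. *Eif2ak3*, the kinase PERK of the endoplasmic reticulum, had a log2 fold change of 0.30, 95% CI -0.21 to 0.82.

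*Eif2d* and *Eif2a* encode proteins that can bring initiator tRNA to the ribosome without the eIF2 trimer. *Eif2d* had 706, 776 and 728 in mKD, against 668, 707 and 716 in WT (log2 fold change 0.08, 95% CI -0.17 to 0.33) and *Eif2a* 1198, 1419 and 1629 in mKD, against 1424, 1693 and 1254 in WT (log2 fold change -0.04, 95% CI -0.41 to 0.32). Their libraries overlapped between genotypes.

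The 14 genes of the eIF3 group had a median log2 fold change of 0.10 (0.11 without *Eif3j2*), with 11 positive and 3 negative values. Without mKD replicate 3 this median was 0.0035. Of the 14 genes, 3 were higher and 1 lower by the 1.2-fold rule, beside 8.31% and 9.51% of all genes. The mKD libraries lay wholly above the WT libraries for 6 of the 14, beside 12.1% of all genes. The subunits are commonly divided into a core of PCI and MPN domain proteins (a, c, e, f, h, k, l and m) and a peripheral module (b, g and i), with d and the loosely bound j attached to them.

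*Eif3k*, a subunit of the core (chr7:28971372-28981864 in GRCm38, minus strand), had normalised counts of 2243, 2174 and 2063 in mKD, against 1394, 1685 and 1693 in WT. The lowest mKD library was above the highest WT library by more than the range of the mKD libraries, and the means were 2160.4 ± 90.9 in mKD and 1591 ± 171 in WT (log2 fold change 0.45, SE 0.12, adjusted p = 0.15). *Eif3i*, a WD-repeat subunit (chr4:129591960-129600648, minus strand), had 2588, 2679 and 2906 in mKD, against 2183, 2370.5 and 2099 in WT (means 2724 ± 164 in mKD and 2217 ± 139 in WT; log2 fold change 0.30, SE 0.10, adjusted p = 0.21), again without overlap. *Eif3e*, a PCI subunit also known as Int6 (chr15:43250058-43282719, minus strand), had 3588, 3663 and 3989 in mKD, against 2867, 3492 and 2646 in WT (means 3746 ± 213 in mKD and 3002 ± 439 in WT; log2 fold change 0.33, SE 0.13, adjusted p = 0.24). WT replicate 2 of *Eif3e* came close to the mKD libraries, and its call was lost without any 1 library but that one (0.24 to 0.36). The call of *Eif3i* was lost without mKD replicate 3 (0.25) or WT replicate 3 (0.26), and that of *Eif3k* held without each library in turn (0.35 to 0.49).

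Below the rule lay another 3 subunits whose mKD libraries were all above the WT libraries. *Eif3g*, an RNA-binding subunit, had 1333, 1387 and 1391 in mKD, against 1102, 1128 and 1230.0 in WT, and with an unadjusted p of 0.040 it missed only the fold (log2 fold change 0.25, 95% CI 0.02 to 0.48). *Eif3f* had 4171, 4232 and 4495 in mKD, against 3584, 4059 and 3272 in WT (log2 fold change 0.25, 95% CI -0.01 to 0.51), with WT replicate 2 only 113 counts below the lowest mKD library. *Eif3h*, the most abundant eIF3 gene per kb (2943 in mKD and 2555 in WT), had 3885, 4039.5 and 3509 in mKD, against 3447, 3312 and 3167 in WT (log2 fold change 0.20, 95% CI -0.03 to 0.44). Its count is uncertain, as 16.7% of its 75-base windows occur in other genes. With the length trend removed *Eif3g* and *Eif3h* were at -0.03 and -0.05.

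The remaining subunits overlapped between genotypes. *Eif3a*, the largest subunit and the scaffold of the complex, had a log2 fold change of -0.10, 95% CI -0.45 to 0.26. *Eif3b*, which holds the peripheral module, was at 0.06, 95% CI -0.21 to 0.33, and *Eif3c* was at -0.0089, 95% CI -0.25 to 0.23. *Eif3d*, which can itself bind the cap of some mRNAs in human cells, was at 0.08, 95% CI -0.19 to 0.35. *Eif3l* was at 0.0016, 95% CI -0.26 to 0.26 and *Eif3m* at 0.11, 95% CI -0.17 to 0.39. For each of these subunits the highest of the 6 libraries was mKD replicate 3, by a narrow margin for *Eif3c* (5472, against 5462 in WT replicate 2). The same library was highest for *Eif3e*, *Eif3f*, *Eif3g*, *Eif3i* and *Eif3j2*, but not for *Eif3h*, *Eif3j1* and *Eif3k*.

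*Eif3j2* was the only member called lower, and its values do not separate the genotypes. It had normalised counts of 0, 0 and 266 in mKD, against 133, 250 and 154 in WT, so that mKD replicate 3 was the highest library of all. A count of 0 allows up to 3 reads, or 2.59 and 2.42 normalised counts in mKD replicates 1 and 2. The fitted log2 fold change (-4.75) depends on the pseudocount that stands in for the 0 values and gives no size. Of its 75-base windows, 87.4% are shared with *Eif3j1*, whose own counts were 2843, 3123 and 3744 in mKD, against 4047, 3538 and 2287 in WT (log2 fold change 0.0070, 95% CI -0.49 to 0.51), so reads of the 2 genes could be divided between them in more than 1 way. DESeq2 gave *Eif3j2* no adjusted p. The call was lost without mKD replicate 1 or 2 and without each WT library in turn, and with mKD replicate 3 left out its adjusted p was 0.041 in limma. With edgeR on recovered reads *Eif3j2* was not called (log2 fold change -1.02, adjusted p = 0.75).

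Many genes of the translation machinery start their mRNAs with a C and a run of pyrimidines, the TOP motif through which mTOR acts on them. RefSeq promoters on GRCm38.p6 were matched for 42 of the 51 members. A C followed by at least 5 letters that are each C or T, beginning within 5 bases of the annotated start on the strand of the gene, was found in 7 of the 42 (16.7%), against 11.9% of all genes and 10.2% of all promoters with such a window. Of the 5 higher members with a promoter in the table, 1 (*Eif2b2*) had such a run. The 30 bases around the start are shown for 4 members, 1 called higher and 3 not, with capitals from the matching C nearest to the start up to the last C or T that follows it. The first transcribed base of the annotation is the sixteenth letter, and the capitals begin there in *Eif3f*, 4 bases after it in *Eif3l*, 5 bases after it in *Eif2b2* and 2 bases before it in *Eif2b5*. In *Eif3f* and *Eif2b5* the letters just before the capitals are also C or T.
Eif2b2 (chr12:85219466-85219495, plus strand): tttcaccgagcggaagttgaCCTCTCTCgg
Eif2b5 (chr16:20498802-20498831, plus strand): ccttcctctttctCTCCCTgcaactacacc
Eif3f (chr7:108934400-108934429, plus strand): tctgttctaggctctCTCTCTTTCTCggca
Eif3l (chr15:79075208-79075237, plus strand): gcgcggagttcttcttccgCTCTCTCCCac
Among the genes shown that were not called, *Eif3f* had a log2 fold change of 0.25, *Eif2b5* of 0.08 and *Eif3l* of 0.0016. The matching members not shown were *Eif2s3x* (-0.15), *Eif4g1* (-0.04) and *Eif2ak4* (0.51), and none of them was called. In *Eif2s3x* the run begins at the annotated start, as in *Eif3f*. A match is a description of the letters and not a test of a site.

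The 13 genes of the eIF4 group had a median log2 fold change of -0.01, with 6 positive and 7 negative values between -0.22 and 0.26. None was called in either direction, beside 8.31% of all genes called higher and 9.51% called lower. At those shares a group of 13 genes would hold few calls. On the scale of counts per kb of the longest annotated transcript, 3 of them were among the 6 most abundant members, with *Eif1*, *Eif5a* and *Eif3h*. They were *Eif4g1* (3381 in mKD and 3463 in WT), *Eif4b* (2714 in mKD and 2739 in WT) and *Eif4a2* (2442 in mKD and 2210 in WT). This ranking rests on that length. *Eif4g2*, with a mean of 14418 normalised counts, has a longest transcript of 7995 nucleotides and a median one of 579.5. Summed over the group, the normalised counts were 69201 to 77430 in mKD and 68921 to 81041 in WT.

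The eIF4G proteins are the scaffolds that join the cap to the ribosome. *Eif4g1* had 18242, 18437 and 20504 in mKD, against 20219, 19911 and 18446 in WT, a spread of 1.12-fold between the highest and the lowest of 6 libraries, the narrowest of all members (log2 fold change -0.04, 95% CI -0.29 to 0.21). *Eif4g3* had 4998, 6385 and 6944 in mKD, against 6128, 6103 and 5088 in WT (log2 fold change 0.07, 95% CI -0.27 to 0.42). *Eif4g2* encodes DAP5, a scaffold without the site for eIF4E, and had 12762, 13814 and 13425 in mKD, against 16115, 15121 and 15274 in WT. Each mKD library of *Eif4g2* was below each WT library, with means of 13334 ± 532 in mKD and 15503 ± 535 in WT, and the log2 fold change was -0.22, 95% CI -0.45 to 0.01. These are the 3 scaffold genes with transcripts of up to 5638 to 8134 nucleotides, and with the trend over transcript length removed *Eif4g2* was at 0.08 and *Eif4g3* at 0.37. With the median annotated transcript as the length, *Eif4g2* was instead called lower, at -0.33.

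The helicases of the eIF4A type gave positive but uncertain values. *Eif4a1* had 1630.5, 2002 and 1945 in mKD, against 1223, 1725 and 1736 in WT (log2 fold change 0.26, 95% CI -0.12 to 0.65), *Eif4a2*, its counterpart in muscle and brain, had 7182, 8375 and 4281 in mKD, against 7088, 7461 and 3404 in WT (log2 fold change 0.17, 95% CI -0.63 to 0.98), and *Eif4a3*, part of the exon junction complex, had 788, 820.0 and 773 in mKD, against 744, 607 and 753 in WT (log2 fold change 0.18, 95% CI -0.11 to 0.48). *Eif4a2* was low in mKD replicate 3 and in WT replicate 3 alike, 1 library of each genotype, and high in the other 4. Of the 75-base windows of *Eif4a1* and *Eif4a3*, 27.7% and 13% occur in other genes, so these counts are uncertain. *Eif4b* and *Eif4h*, which stimulate the helicase, had 8718, 10039 and 12626 in mKD, against 9229.5, 12814 and 9625 in WT (log2 fold change -0.01, 95% CI -0.43 to 0.40) and 3138, 3051 and 3349 in mKD, against 3169, 2889 and 2952 in WT (log2 fold change 0.08, 95% CI -0.14 to 0.31).

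Cap binders and their inhibitors did not differ beyond their spread. *Eif4e*, the cap-binding protein of eIF4F, had 906, 835 and 1012 in mKD, against 952, 1007 and 1042 in WT (log2 fold change -0.13, 95% CI -0.40 to 0.14). *Eif4e2*, which represses the mRNAs it binds, had 1202, 1475 and 1392 in mKD, against 1437, 1320.2 and 1490.4 in WT (log2 fold change -0.07, 95% CI -0.34 to 0.21), and *Eif4e3* had 951, 763 and 966 in mKD, against 1009, 1091 and 757 in WT (log2 fold change -0.08, 95% CI -0.48 to 0.31). The values of the 3 genes were slightly below 0 and every interval included 0. Of the inhibitors, *Eif4ebp2* had 7849.9, 6810.3 and 9406 in mKD, against 8239.6, 10141 and 7551 in WT (log2 fold change -0.11, 95% CI -0.48 to 0.26), and *Eif4enif1*, which carries eIF4E into the nucleus and represses its mRNAs, had 833, 888 and 806 in mKD, against 683, 849.7 and 803 in WT (log2 fold change 0.12, 95% CI -0.17 to 0.41).

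Of the small factors that scan for the start codon, *Eif1b* was higher in mKD. This close relative of *Eif1* (chr9:120492232-120495330 in GRCm38, plus strand) had normalised counts of 788, 819 and 754 in mKD, against 535, 630.0 and 593 in WT, the highest WT library 124 counts below the lowest mKD library, with means of 787 ± 32.4 in mKD and 586 ± 47.7 in WT (log2 fold change 0.43, SE 0.12, adjusted p = 0.16). The call held without each library in turn (0.36 to 0.48) and was 0.49 without mKD replicates 1 and 3. *Eif1* itself, the most abundant member per kb (7172 in mKD and 7618 in WT), had 8735, 6308 and 13401 in mKD, against 6679, 13066 and 10467 in WT. Its libraries ranged over 2.12-fold within and across the genotypes, and its log2 fold change was -0.10, 95% CI -0.84 to 0.63. For *Eif1*, 25.6% of the 75-base windows occur in other genes.

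The eIF1A genes had negative values that did not pass the rule. *Eif1a* had 226, 255 and 228 in mKD, against 331, 294 and 271 in WT, each mKD library below each WT library, and its unadjusted p of 0.0502 missed the threshold (log2 fold change -0.34, 95% CI -0.67 to 0.0004). With a pseudocount of 0.5, edgeR or the trend over the longest transcript removed it passed, at -0.34, -0.33 and -0.39. It also passed with a mean of at least 50, upper-quartile scaling or WT replicate 3 left out. It did not pass with a pseudocount of 4, no filter on low counts, TMM scaling, DESeq2 or the replicate block. Nor did it pass with the median transcript as the length, or without any other 1 library. *Eif1ax*, the X-linked copy, had 2276, 2333 and 2381 in mKD, against 3066, 2511 and 2256 in WT (log2 fold change -0.15, 95% CI -0.45 to 0.15), and *Eif1ad*, a nuclear protein with a domain like that of eIF1A, had a value of 0.14, 95% CI -0.15 to 0.43.

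Among the higher genes, *Eif6* and *Eif5a* had the largest fold changes. *Eif6* keeps the large ribosomal subunit from joining too early, and in mouse liver and fat it acts downstream of insulin. The gene (chr2:155819832-155826925 in GRCm38, minus strand) had 1105, 923 and 864 in mKD, against 615, 740.3 and 699 in WT, with no overlap of the genotypes and the highest value in mKD replicate 1 (means 964 ± 126 in mKD and 685 ± 64.1 in WT; log2 fold change 0.49, SE 0.14, adjusted p = 0.17). *Eif5a* encodes an eIF5A protein, which carries hypusine and helps ribosomes through stretches such as polyproline. The gene (chr11:69916714-69921958, minus strand) had 8968, 7268 and 8316 in mKD, against 5257, 6835 and 5418 in WT, and WT replicate 2 lay 433 counts below the lowest mKD library (means 8184 ± 858 in mKD and 5836 ± 868 in WT; log2 fold change 0.49, SE 0.14, adjusted p = 0.17). Both calls held without each library in turn, at 0.39 to 0.56 for *Eif6* and 0.42 to 0.61 for *Eif5a*. With mKD replicates 1 and 3 both left out they were lost, at 0.43 and 0.33.

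The other genes of this group were not called. *Eif5b*, the GTPase that joins the subunits, had 3416, 3609 and 4194 in mKD, against 4875, 4053 and 3577 in WT (log2 fold change -0.15, 95% CI -0.48 to 0.18), and *Eif5*, the GTPase activator of eIF2, had a value of 0.01, 95% CI -0.28 to 0.31. *Eif5a2* was barely transcribed beside *Eif5a*, at 6.11 normalised counts per kb in mKD and 5.0 in WT, while *Eif5a* had 5695 per kb in mKD and 4062 in WT. Its fold change was 0.23, 95% CI -0.81 to 1.27.

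**Figure D2:**
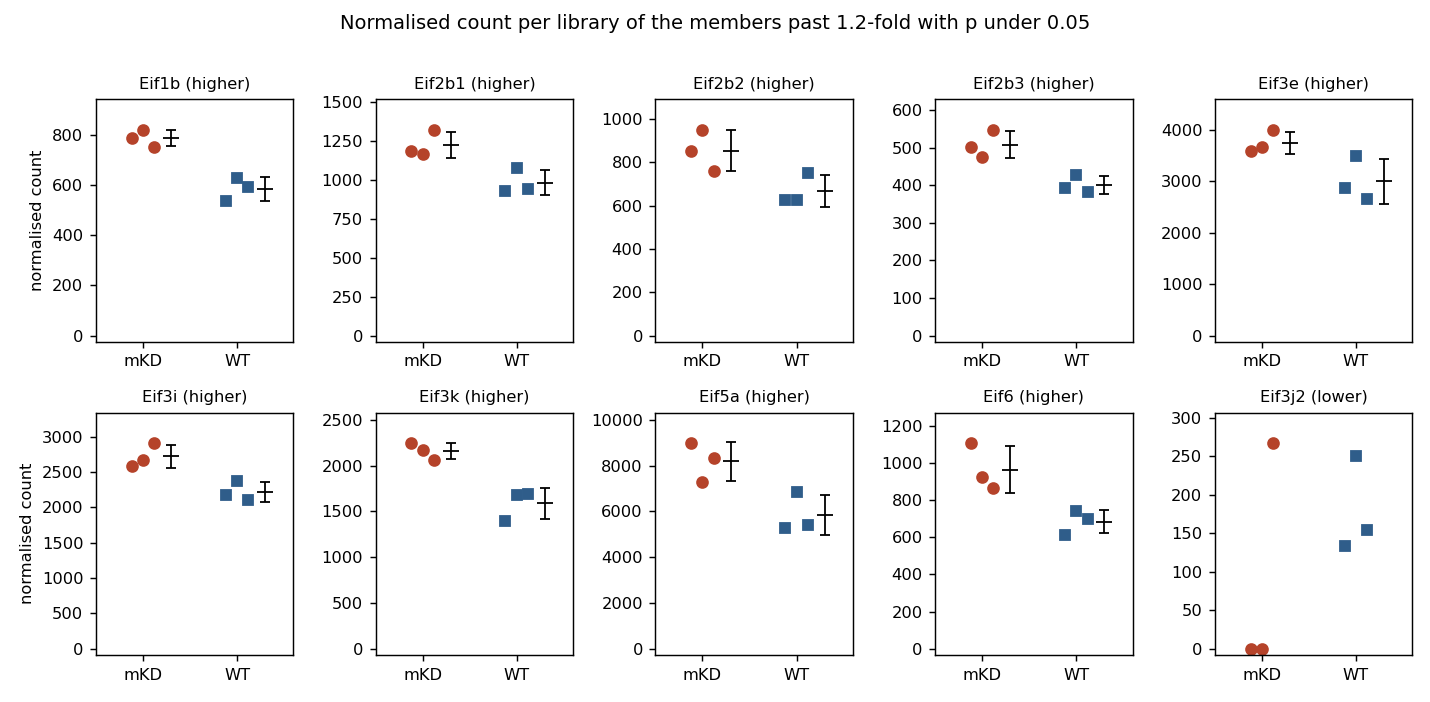
Normalised count in each library of the 10 initiation factor genes past 1.2-fold with an unadjusted p under 0.05, mKD (orange circles) beside WT (blue squares). Bars give the mean and SD of 3 mice, and are left out for *Eif3j2*, which had 0 in 2 mKD libraries and its highest value in the third. The 9 higher genes show no overlap between the genotypes, which the rule that picked them favours. Of all genes tested, 12.1% had their mKD libraries wholly above the WT libraries.

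Many of these factors come in pairs of related genes, and the ratio within a pair does not depend on how a library is scaled. In 9 pairs compared, the log2 ratio did not separate the genotypes in any, and the smallest exact permutation p was 0.20, for *Eif1ax* over *Eif1a* (adjusted p = 1.0 over the 9 pairs). *Eif1ax* exceeded *Eif1a* by 10-, 9.12- and 10.4-fold in mKD and by 9.24-, 8.52- and 8.28-fold in WT. *Eif1b* was at 0.0904, 0.130 and 0.0564 of *Eif1* in mKD, against 0.0803, 0.0483 and 0.0568 in WT. The log2 ratio of *Eif1b* to *Eif1* was 0.53 higher in mKD (exact permutation p = 0.30), and the genotypes overlapped.

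Apart from *Eif3j1* over *Eif3j2*, the pair with the widest range was *Eif4a2* over *Eif4a1*, at 4.40, 4.18 and 2.20 in mKD and 5.79, 4.32 and 1.96 in WT. The lowest ratio of each genotype was in its replicate 3, and the mean log2 ratio was 1.78 ± 0.56 in mKD and 1.87 ± 0.81 in WT (SD, n = 3 mice each). *Eif4g3* was at 0.274, 0.346 and 0.339 of *Eif4g1* in mKD, against 0.303, 0.307 and 0.276 in WT, the pair with nearly the narrowest range. For *Eif4e2* over *Eif4e*, *Eif4e3* over *Eif4e* and *Eif4h* over *Eif4b*, the difference of the log2 ratios was 0.06, 0.04 and 0.10, and that of *Eif5a2* over *Eif5a* was -0.26. Each of these 4 changed sign with the trend over transcript length removed. The ratio of *Eif3j1* to *Eif3j2* was set by the libraries without *Eif3j2* reads.

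**Figure D3:**
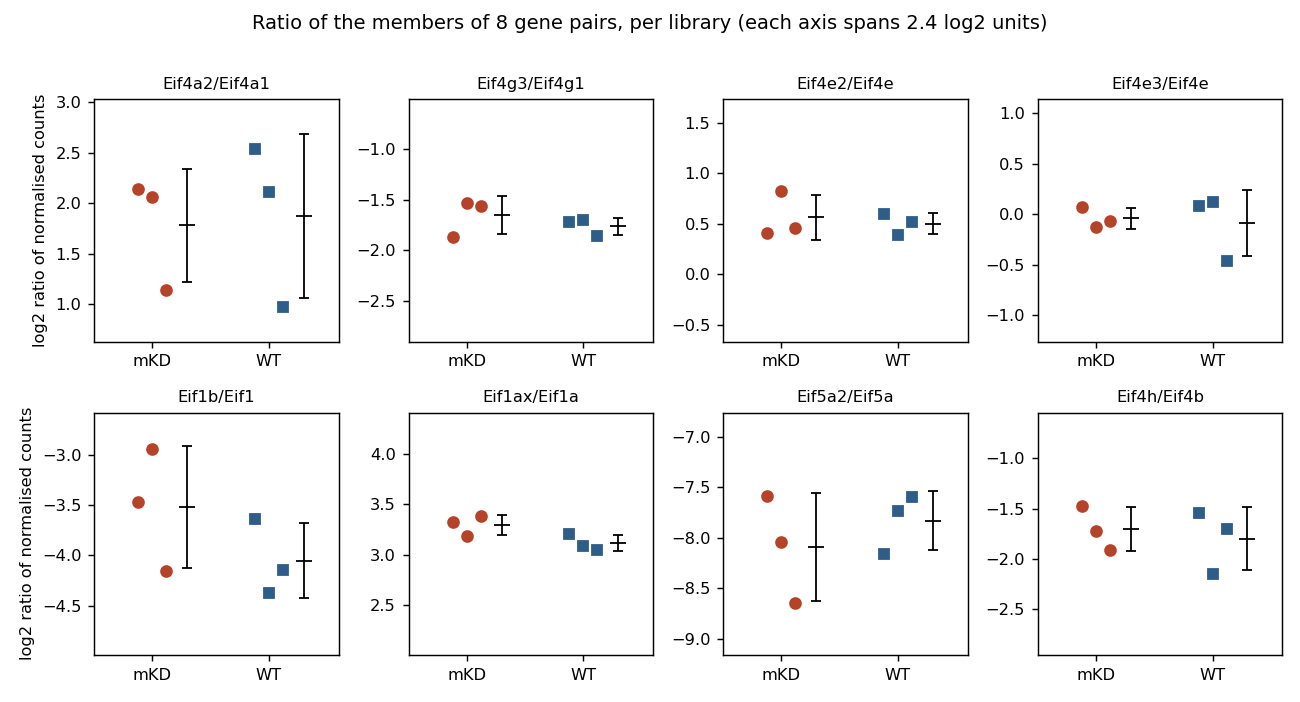
Log2 ratio of the normalised counts of 8 pairs of related initiation factor genes in each library, mKD (orange circles) beside WT (blue squares), with the mean and SD of 3 mice. Each vertical axis spans the same number of log2 units, and the genotypes overlap in every panel. The pair *Eif3j1* and *Eif3j2* is not drawn.

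The fold changes of the members followed the length of their transcripts, as those of all genes did. Spearman's rho between the longest annotated transcript and the log2 fold change was -0.43 over the 51 members (-0.47 without *Eif3j2*) and -0.45 over 12315 genes, given as descriptions over genes that share the same 6 libraries. The median log2 fold change of all genes was 0.31 in the tenth with the shortest transcripts and -0.32 in the tenth with the longest. The 9 higher members had a median longest transcript of 1782 nucleotides and the 41 uncalled members 3465. *Eif1b* (1035 nucleotides), *Eif5a* (1437), *Eif6* (1500), *Eif2b2* (1605) and *Eif3k* (1782) are all short. *Eif2b3* (3754) and *Eif3e* (4123) are not.

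After a lowess curve over the longest transcript was subtracted from every library, 3 members were higher, beside 5.04% of all genes, and 2 were lower, beside 5.46% of all genes. The higher ones were *Eif2b3* (0.36), *Eif3e* (0.38) and *Eif4g3* (0.37), of which the first and the second had been called before. The lower ones were *Eif1a* (-0.39) and *Eif3j2*. *Eif1b* (0.13), *Eif5a* (0.26), *Eif6* (0.27), *Eif3k* (0.26), *Eif3i* (0.18), *Eif2b1* (0.16) and *Eif2b2* (0.15) were positive and no longer called. The group medians became 0.14 for eIF2, 0.0056 for eIF3 and 0.08 for eIF4. With the median annotated transcript as the length, 6 members were higher, beside 6.67% of all genes, and 2 were lower, beside 8.06%. Whether length, RNA quality or genotype set these calls was not tested.

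**Figure D4:**
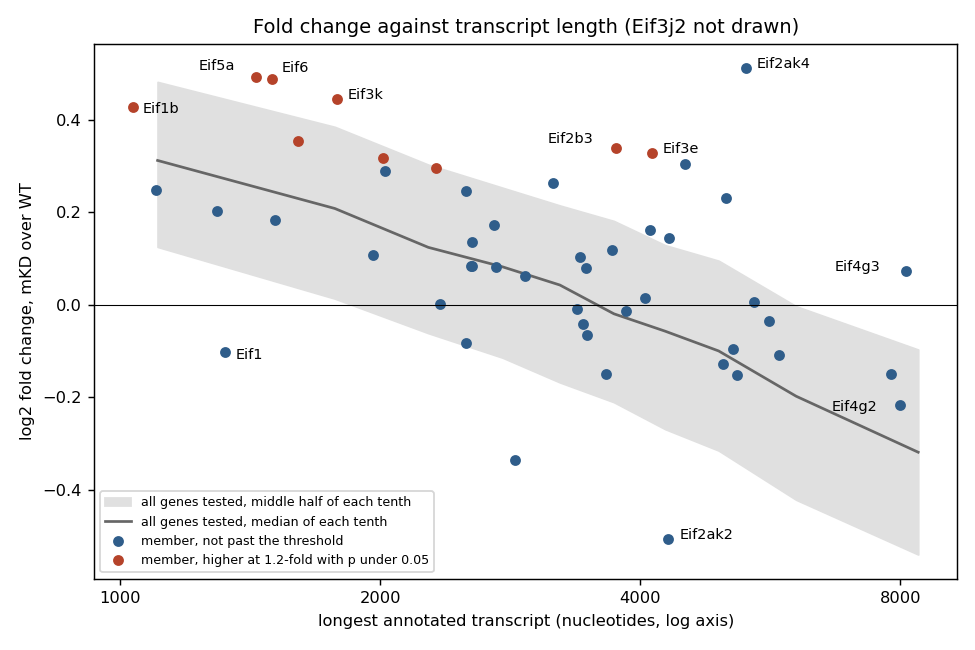
Log2 fold change, mKD over WT, against the longest annotated transcript (log axis) for 50 initiation factor genes, with the median (line) and interquartile range (band) of all genes tested in each of 10 equal bins of length. The line falls from 0.31 to -0.32. Most of the 9 higher members (orange) are short and lie above the line, and *Eif2b3* and *Eif3e* are the 2 of them with the longest transcripts. *Eif3j2* is not drawn.

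Genes that act on initiation or beside it were counted from 5 further lists by the same rule. Of 13 genes for the control of eIF4F by mTOR and MNK, 1 was higher and 1 lower. *Rps6*, a ribosomal protein phosphorylated by the S6 kinases, had 5048, 5526 and 5444 in mKD, against 3949, 4773 and 3804 in WT (log2 fold change 0.36, SE 0.12, adjusted p = 0.20), the mKD libraries above the WT libraries. *Larp1*, the repressor that binds TOP mRNAs, had 3992, 4224 and 2806 in mKD, against 5139.8, 5679.9 and 5032 in WT (log2 fold change -0.54, SE 0.16, adjusted p = 0.18), the mKD libraries below. *Mknk2*, a kinase of eIF4E, had 8438, 9211 and 10398 in mKD, against 6915, 7566 and 8604 in WT and was not called (log2 fold change 0.28, SE 0.13, adjusted p = 0.30). With the length trend removed *Rps6* was at 0.08 and *Larp1* at -0.31.

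Of 6 genes for poly(A) binding, 1 was higher. *Pabpn1*, the nuclear poly(A)-binding protein, had 544, 638 and 525 in mKD, against 382, 373 and 464 in WT (log2 fold change 0.49, SE 0.14, adjusted p = 0.18). Of 10 elongation and termination factors tested, 2 were higher, both subunits of the exchange factor of eEF1A. *Eef1b2* had 3759, 3838 and 4399.7 in mKD, against 2779.8, 2827 and 2691 in WT (log2 fold change 0.53, SE 0.10, adjusted p = 0.11) and *Eef1d* 3115, 3295 and 3727 in mKD, against 2297, 2858 and 2666 in WT (log2 fold change 0.38, SE 0.12, adjusted p = 0.20), each without overlap. Of 10 start-site and recycling factors 1 was higher, *Mcts1*, the partner of DENR in reinitiation, with 467, 483 and 543 in mKD, against 385, 381 and 377 in WT (log2 fold change 0.38, SE 0.12, adjusted p = 0.19). None of the 6 tested genes for the phosphatase of eIF2 and the regulators of its kinases was called. *Ppp1r15a* (GADD34), the subunit that directs the phosphatase to eIF2, had 871, 907 and 855 in mKD, against 543, 592 and 906 in WT (log2 fold change 0.40, SE 0.19, adjusted p = 0.31), and *Gcn1l1*, which activates GCN2, had 1362, 1478 and 1743 in mKD, against 1782, 1889 and 1813 in WT (log2 fold change -0.27, SE 0.12, adjusted p = 0.29). With the length trend removed *Pabpn1* was at 0.30, *Eef1b2* at 0.37, *Eef1d* at 0.32 and *Mcts1* at 0.04. Over the 5 lists, 5 genes were higher and 1 was lower of 45 tested, 11.1% and 2.22%, beside 8.31% and 9.51% of all genes.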

How the data were processed

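RNA-seq of GAS muscle was analysed from 3 mKD and 3 WT mice, 1 poly(A)-selected, strand-specific library each. The deposited signal is a normalised count per gene, in which the authors scaled the reads of every library with a single factor. The submitters' processing notes name GRCm38 (mm10), the paper names Partek Flow and DESeq2, and for the aligner and counter the tool was not given in the sources used here. Columns with the authors' own fold changes, test statistics and p-values were not used.

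Division by the smallest positive value gave whole reads for 100% of values, with a tolerance of 1e-04. limma 3.58.1 with a trend (R 4.3.3) was fitted on log2(value + 1) with genotype as the only term, over the 12322 genes past edgeR's filter on low counts, with two-sided tests and Benjamini-Hochberg adjustment. Fold changes on this scale are understated for low genes. The unadjusted threshold, 1.2-fold with p under 0.05, is the cut-off that the study's results text names for its pathway analysis, while its methods name a false discovery rate. edgeR 4.0.16 and DESeq2 1.42.0 on recovered reads were alternatives, with other pseudocounts, filters and scalings, the replicate number as a block, the loss of each library, and removal with a lowess curve of the dependence of each library on transcript length. The fits were tested on simulated data with changes larger than those of the higher members, so that test does not cover calls of their size. Ratios of related genes were compared with exact permutation tests. Lengths and coordinates come from GENCODE M21 (GRCm38), which holds 99.4% of the gene identifiers, and promoters from RefSeq GRCm38.p6. Shared sequence was measured as the share of a gene's 75-base transcript windows that occur in another gene.

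Values in every library are given for members past the threshold, for up to 3 genes of each role with the smallest p and for the most abundant gene of each role per kb of the longest transcript. *Eif3f*, *Eif3g* and *Eif3j1* were added after their values were seen. The members, roles, pairs and lists were chosen with earlier results of these data known. Intervals and limits for a count of 0 cover counting error or the spread between these mice only.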

Additional observations from a re-analysis of the deposited data

How the results depend on the processing

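The count of 9 higher initiation factor genes was unchanged with pseudocounts of 0.5 and 4, no filter on low counts, a mean of at least 50, both other scalings, edgeR and DESeq2. It was 4 with the replicate block, 3 with the trend over the longest transcript removed, 2 without mKD replicates 1 and 3, 0 at 1.5-fold and 5 to 9 without 1 library. Lower genes numbered 2 with a pseudocount of 0.5, a mean of at least 50, upper-quartile scaling or either length trend removed, 0 with DESeq2 or with *Eif3j2* left out, and 0 to 1 without 1 library. With edgeR the 1 lower gene was *Eif1a* in place of *Eif3j2*. Genes with an adjusted p under 0.05 numbered 2 with DESeq2 (*Eif3k* and *Eif5a*), and 0 to 1 without 1 library or 1 without mKD replicates 1 and 3, that 1 being *Eif3j2*. The length trend over the median transcript, the loss of mKD replicates 1 and 3 and the removal of *Eif3j2* were chosen after seeing the data. Without 1 library the eIF2 median was 0.093 to 0.18 and the eIF3 median 0.0035 to 0.15. The eIF4 median was 0.078 with the trend over the longest transcript removed and -0.087 to 0.085 without 1 library. *Tet3* was at -0.22 with that trend removed and at -0.35 with the median transcript. The cause of these shifts was not tested.

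Replicate numbers did not pair the libraries (correlation of deviations 0.055, -0.051 and -0.076 for numbers 1 to 3), and the block left 4 higher genes, *Eif1b*, *Eif3k*, *Eif5a* and *Eif6*, and 1 lower. The block changed no other count, group median or the call for *Tet3*. Reads were few for *Eif5a2*, with a mean of 27.9 normalised counts, and its interval also holds the spread between mice.

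Genes that were not called changed sign in places. With the trend over the longest transcript removed the log2 fold change was -0.0038 for *Eif2b5*, 0.043 for *Eif3a*, -0.0042 for *Eif3d*, -0.033 for *Eif3g*, -0.051 for *Eif3h*, -0.11 for *Eif3l*, -0.052 for *Eif3m*, -0.036 for *Eif4a3*, 0.018 for *Eif4b*, 0.079 for *Eif4ebp2*, 0.14 for *Eif4g1*, 0.078 for *Eif4g2*, 0.14 for *Eif5b* and 0.050 for *Gcn1l1*. With the trend over the median transcript removed it was -0.044 for *Eif3b*, -0.0020 for *Eif3d*, -0.013 for *Eif3l*, 0.012 for *Eif4e3*, 0.065 for *Eif4ebp2* and -0.070 for *Eif5*. Without mKD replicates 1 and 3 it was -0.043 for *Eif2b5*, 0.0060 for *Eif2s3x*, -0.032 for *Eif3b*, 0.040 for *Eif3c*, -0.038 for *Eif3d*, -0.035 for *Eif3j1*, -0.066 for *Eif3l* and 0.061 for *Eif4e2*. It was 0.0010 for *Eif3c* with TMM scaling, -0.023 for *Eif3j1* with DESeq2, and 0.0023 for *Eif3c* and -0.013 for *Eif3j1* with edgeR. Without 1 library it ranged from -0.39 to 0.16 for *Eif1*, -0.15 to 0.072 for *Eif2a*, -0.0027 to 0.18 for *Eif2b5*, -0.0093 to 0.28 for *Eif2s2*, -0.26 to 0.025 for *Eif3a*, -0.032 to 0.11 for *Eif3b*, -0.050 to 0.057 for *Eif3c*, -0.016 to 0.15 for *Eif3d*, -0.24 to 0.18 for *Eif3j1*, -0.085 to 0.054 for *Eif3l*, -0.19 to 0.46 for *Eif4a2*, -0.16 to 0.13 for *Eif4b*, -0.13 to 0.020 for *Eif4e2*, -0.24 to 0.027 for *Eif4e3*, -0.23 to 0.012 for *Eif4ebp2*, -0.026 to 0.21 for *Eif4g3*, -0.089 to 0.12 for *Eif5* and -0.091 to 0.50 for *Eif5a2*. The difference of log2 ratios was -0.061 for *Eif4e2*/*Eif4e*, -0.17 for *Eif4e3*/*Eif4e*, 0.10 for *Eif5a2*/*Eif5a* and -0.0050 for *Eif4h*/*Eif4b* with the trend over the longest transcript removed, and without 1 library it ranged from -0.54 to 0.24 for *Eif4a2*/*Eif4a1*, -0.066 to 0.14 for *Eif4e2*/*Eif4e*, -0.14 to 0.15 for *Eif4e3*/*Eif4e*, -0.51 to 0.019 for *Eif5a2*/*Eif5a* and -0.079 to 0.22 for *Eif4h*/*Eif4b*. None of the 9 genes called higher changed sign under any of these alternatives. Leaving libraries out could not have reversed them, since each of their mKD libraries lay above each WT library.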

Other observations

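The initiation factor genes differed in how much they varied from mouse to mouse. Among members with reads in all 6 libraries, the highest value exceeded the lowest by 2.86-fold for *Eif2ak2*, 2.65-fold for *Eif2ak4*, 2.63-fold for *Eif5a2*, 2.46-fold for *Eif4a2* and 2.12-fold for *Eif1*. *Eif4a2* and *Eif1* averaged 6298 and 9776 normalised counts over the 6 libraries, while *Eif2ak2*, *Eif2ak4* and *Eif5a2* averaged 89.7, 118 and 27.9. At the other end were *Eif4g1* (1.12-fold), *Eif4h*, *Eif2d* and *Eif3c* (each 1.16-fold).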
